A study of Mus musculus with 24 samples.

Results

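The genes described here encode membrane transporters: solute carriers (Slc and Slco genes), ABC transporters, ATP-driven ion and lipid pumps (Atp genes) and aquaporins, chosen by symbol. All those listed in at least 1 of 23 differential expression tables of P19 cells were taken, which gave 51 of the 1753 genes listed in any table. They comprised 36 Slc genes, 1 Slco gene, 6 Abc genes, 5 Atp genes and 3 Aqp genes. Being listed is itself a result of the comparison with the control, and transporter genes that passed the significance limit of no table are not described.

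P19 is a mouse embryonal carcinoma cell line that forms neurons and glia when it is exposed to retinoic acid. The RNA sequencing covered 24 samples with 1 library each, and compared ligands that activate all or single retinoic acid receptors (RARs). WT cells were treated with ATRA (all-trans retinoic acid, 1 μM), the RARα agonist BMS753 (1 μM), the RARβ agonist BMS641 together with the RARγ agonist BMS961 (0.1 μM each), or ethanol (EtOH), the vehicle, and were collected at 2, 4 and 10 d. WT cells with BMS961 alone (0.1 μM) were collected at 10 d. The Rara-/- line received ATRA, BMS961 or the combination of BMS641 and BMS961. The Rarb-/- line received these and BMS753, and the Rarg-/- line received ATRA, BMS753, BMS641 alone (0.1 μM) or the combination, and all were collected at 10 d. The 10 d samples had 4 d of ligand followed by 6 d in Neurobasal medium with N2 and with B27 that lacked vitamin A. The lines deficient for a receptor were made in P19 cells with CRISPR/Cas9 and a puromycin resistance cassette, and whether each line is 1 clone is not given in the sources used here. No table of a vehicle-treated mutant line was used here, so that a mutant line and its ligand cannot be told apart from these values alone.

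Each table set 1 library against the same reference, WT cells kept for 2 d in EtOH. A value below is the log2 fold change (log2FC) of that comparison, with the standard error (SE) that follows from the log2FC and its p-value. The error is that of the statistical model for 1 library against another, since no condition had a second library. All tables share the reference library, so the values of a gene in different tables are not independent of each other. Where a table does not hold a gene, the gene is described as not listed, which does not mean that it did not change. In the 7 tables of ATRA or BMS753 at d10 the smallest absolute log2FC listed was between 4.17 and 4.73, and in the other 9 tables of d10 it was between 2.71 and 3.35. A modest change could therefore be listed with the other ligands or EtOH and be missing with ATRA or BMS753. These are the smallest values of any gene. Listing rested on a p-value under 0.01, so a gene with a larger SE needed a larger log2FC. Depth is unknown and no read counts were used, so a fold change against a reference near 0 reads could not be recognised. Rara, Rarb and Rarg were listed in 0 of the 23 tables, so that these values offer no check of the mutant lines.

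Solute carriers move small molecules across membranes by exchange or along ion gradients, whereas ABC transporters and ion pumps spend ATP. In neurons, vesicular carriers load transmitters into synaptic vesicles, and carriers of the plasma membrane of neurons and astrocytes take the released transmitter up again. Glutamine, lactate and zinc carriers, calcium pumps and aquaporins serve the metabolism and the ion and water balance around these synapses.

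The sequences before the transcription start of 4 members are shown because the account below returns to them: the vesicular glutamate carrier gene Slc17a6 and the vesicular GABA carrier gene Slc32a1, which were up-regulated at d10, the aquaporin gene Aqp3, which was down-regulated in the most tables, and Slc7a7, the only member whose promoter held a direct repeat of the kind that RARs are known to bind. They are the 250 bases before the start, 5′ to 3′ on the strand of the gene, from RefSeq (GRCm38.p6, a later build than the mm9 of the tables): Slc17a6 at chr7:51621580-51621829 (plus strand), Slc32a1 at chr2:158610508-158610757 (plus strand), Slc7a7 at chr14:54417945-54418194 (minus strand) and Aqp3 at chr4:41098184-41098433 (minus strand). Capitals mark the hexamer AGGTCA, known as the core of a nuclear receptor site, the related hexamer AGTTCA, the hexamer GGGTCA or the hexamer GGTTCA, on either strand.
Slc17a6: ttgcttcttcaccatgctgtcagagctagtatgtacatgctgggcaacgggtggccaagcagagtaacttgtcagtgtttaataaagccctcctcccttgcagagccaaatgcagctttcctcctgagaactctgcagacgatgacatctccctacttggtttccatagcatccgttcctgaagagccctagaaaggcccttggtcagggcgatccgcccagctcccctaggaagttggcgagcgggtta
Slc32a1: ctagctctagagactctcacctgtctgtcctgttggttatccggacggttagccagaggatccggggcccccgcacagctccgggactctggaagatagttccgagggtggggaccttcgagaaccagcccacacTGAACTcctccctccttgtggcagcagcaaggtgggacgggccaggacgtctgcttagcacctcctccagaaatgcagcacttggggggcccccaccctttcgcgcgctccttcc
Slc7a7: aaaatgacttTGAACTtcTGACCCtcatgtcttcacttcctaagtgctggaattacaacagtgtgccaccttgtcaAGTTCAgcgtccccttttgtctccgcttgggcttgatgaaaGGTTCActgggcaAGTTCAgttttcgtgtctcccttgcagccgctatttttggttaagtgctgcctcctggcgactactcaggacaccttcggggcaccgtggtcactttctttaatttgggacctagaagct
Aqp3: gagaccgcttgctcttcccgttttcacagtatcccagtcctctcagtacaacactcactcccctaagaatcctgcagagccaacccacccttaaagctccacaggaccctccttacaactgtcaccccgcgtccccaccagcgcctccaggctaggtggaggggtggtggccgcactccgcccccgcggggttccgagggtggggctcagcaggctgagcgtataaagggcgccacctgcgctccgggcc

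RefSeq promoters, 250 bases before to 50 after a start, were found for 37 of the 51 members, with 56 starts. At least 1 of these hexamers, on either strand, was present in 28 of the 56 (50%), against 43.71% of all 32851 promoters. Direct repeats of the hexamers with a spacing of 1 or 5 bases were present in 0 of the 56, and in 0.2222% and 0.09741% of all promoters. A repeat with a spacing of 2 bases was present in 1 of the 56 (1.786%), against 0.2679% of all. It is at 1 of the 5 starts of Slc7a7, and that start is the one shown above because it holds the repeat. In the Slc7a7 sequence it is the pair of capital runs nearest to the 5′ end, read on the opposite strand. The Slc17a6 and Aqp3 sequences hold no such hexamer within the 250 bases, and that of Slc32a1 holds 1. These matches describe letters, not binding.

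Across the 23 tables the members had 211 values, of which 17 were from the 7 tables of d2 or d4 and 194 from the 16 of d10. Of the 51 members, 12 were listed at d2 or d4, beside 668 of all 1753 listed genes. The absolute log2FC of the members ranged from 1.86 to 10.51, with a median of 5.57, beside 6.03 for all listed genes. The SE ranged from 0.712 to 2.87 with a median of 1.87, beside 1.98 for all listed genes. A value of median size thus carried a sizeable SE, and small differences between tables were not resolved. A member was listed in a median of 3 tables, and 15 members (29.4%) were listed in a single table, beside 33.1% of all listed genes. In 25 members the listed values were positive and in 26 (51.0%) they were negative, beside 34.1% of all listed genes with negative values alone. The map of values by gene and comparison shows blue rows that run across ligands and lines, and shorter red rows.

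**Figure D1:**
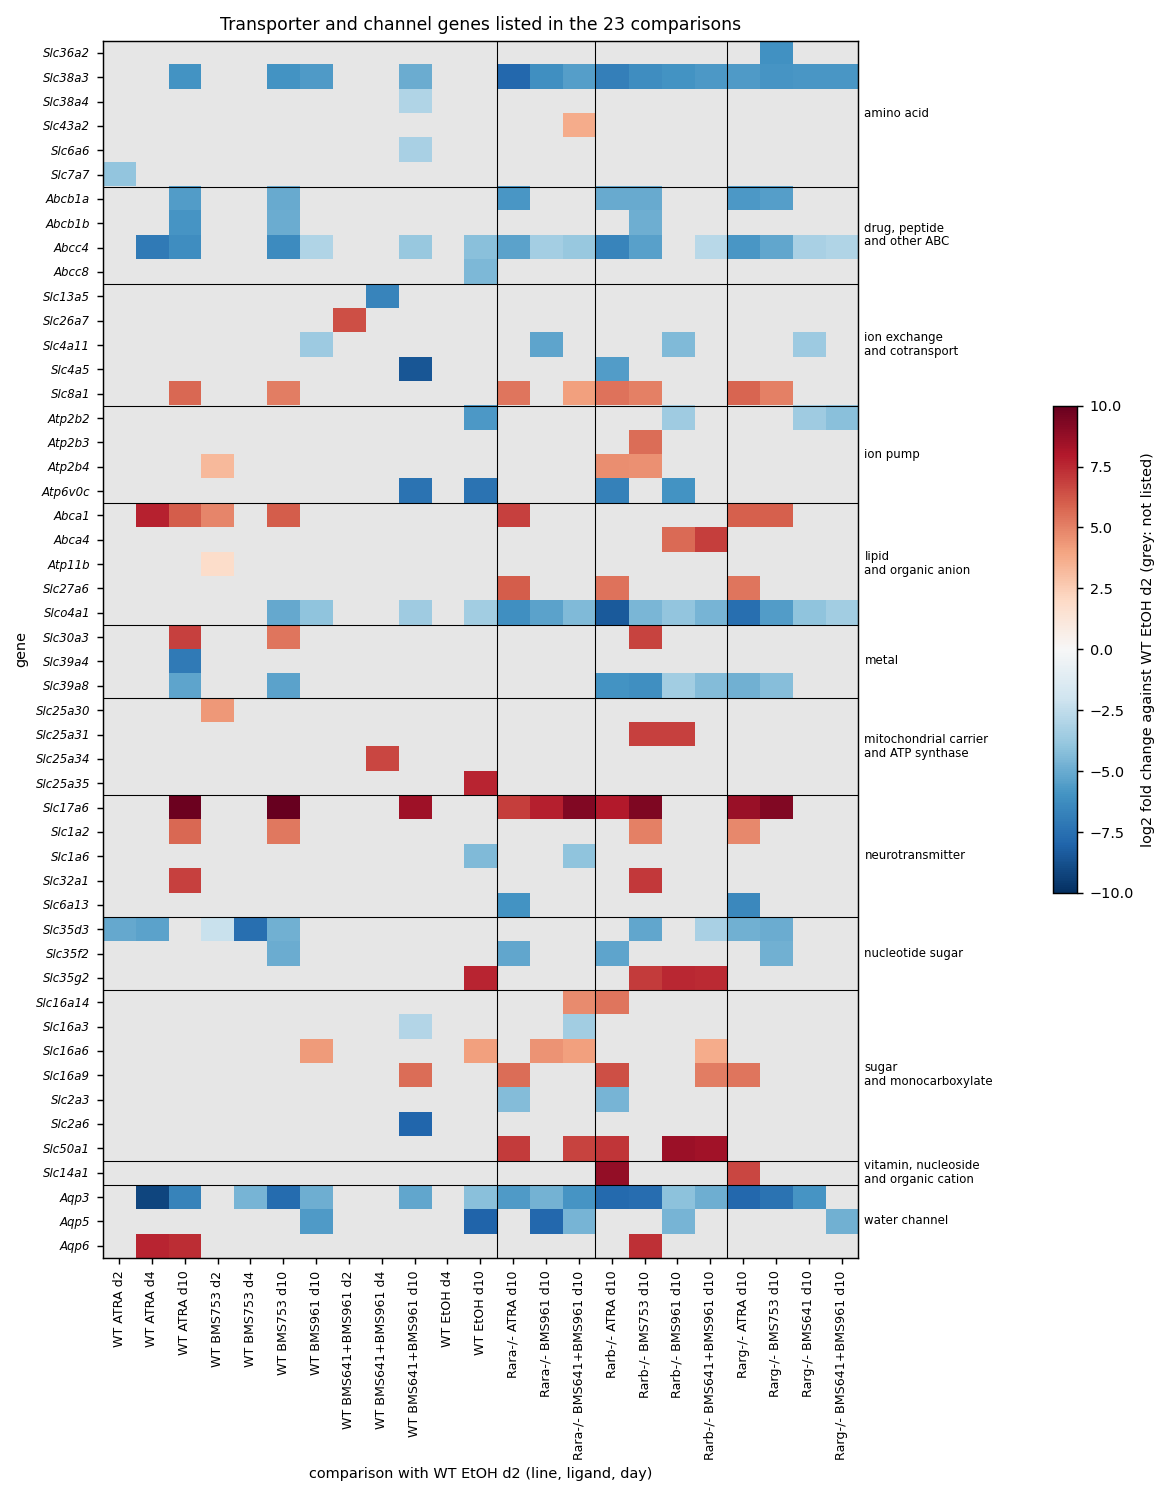
Log2 fold change against WT EtOH d2 of 50 transporter genes (rows, grouped by what they carry) in the 23 comparisons (columns, by line, ligand and day; 1 library each). Red is higher and blue lower than the reference, and grey is not listed; the rows of Aqp3, Abcc4, Slco4a1 and Slc38a3 are blue in 15 to 17 columns, and that of Slc17a6 is red in 10.

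Counted by ligand, up-regulation of transporter genes was most frequent with ATRA and BMS753, although Rarg-/- cells with BMS753 and Rara-/- cells with the combination of BMS641 and BMS961 were exceptions. The order was not particular to transporter genes. All listed genes were likewise called up more often with ATRA and BMS753 at d10 (19% to 22.5%) than in the other tables of d10 (7.02% to 16.8%). A gene was counted as up- or down-regulated past a log2FC of 2 (4-fold) at the p-value in the table, and the share of all 1753 listed genes that passed in the same direction is given beside each count. Every count is against WT EtOH at d2, so at d10 the ligand, the time and the change of medium are not separated. In WT cells at d10, ATRA up-regulated 8 members (15.7%, beside 22.5% of all listed genes) and down-regulated 7 (13.7%, beside 8.61%). BMS753 up-regulated 6 (11.8%, beside 21.8%) and down-regulated 9 (17.6%, beside 9.13%). The genes up with both included Slc17a6, Slc1a2, Slc8a1, Abca1 and Slc30a3, and ATRA added Slc32a1 and Aqp6. With BMS641 and BMS961 together, 2 members were up-regulated, Slc17a6 and Slc16a9 (3.92%, beside 9.87%), and 10 down-regulated (19.6%, beside 8.5%). With BMS961 alone, 1 member was up-regulated, Slc16a6 (1.96%, beside 8.16%), and 6 were down-regulated (11.8%, beside 7.47%). In WT cells kept in EtOH to d10, 3 members were up-regulated (5.88%, beside 9.53%) and 8 down-regulated (15.7%, beside 7.64%). Transporter genes were therefore called up less often than listed genes in general in these WT tables of d10, and called down more often, EtOH included. No test of these shares was made. Without members also called in EtOH at d10, the up- and down-regulated members were 8 and 5 with ATRA and 6 and 6 with BMS753. They were 2 and 6 with the combination and 0 and 2 with BMS961.

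The mutant lines at d10 gave the following counts, also against WT EtOH at d2. In Rara-/- cells, ATRA up-regulated 6 members (11.8%, beside 19% of all listed genes) and down-regulated 8 (15.7%, beside 10.4%). BMS961 up-regulated 2 (3.92%, beside 10.9%) and down-regulated 6 (11.8%, beside 8.61%). The combination up-regulated 6 in this line (11.8%, beside 16.8%) and down-regulated 7 (13.7%, beside 6.67%). Its up-regulated genes were Slc17a6, Slc50a1, Slc16a14, Slc16a6, Slc8a1 and Slc43a2, whereas in WT cells with the same ligands they were Slc17a6 and Slc16a9. In Rarb-/- cells, ATRA up-regulated 8 (15.7%, beside 20.5%) and down-regulated 10 (19.6%, beside 10.3%), and BMS753 up-regulated 11 (21.6%, beside 22.3%) and down-regulated 8 (15.7%, beside 6.79%). In the same line BMS961 up-regulated 4 (7.84%, beside 7.02%) and down-regulated 8 (15.7%, beside 6.96%), and the combination up-regulated 5 (9.80%, beside 8.27%) and down-regulated 6 (11.8%, beside 7.64%). In Rarg-/- cells, ATRA up-regulated 8 (15.7%, beside 21.4%) and down-regulated 8 (15.7%, beside 9.47%), and BMS753 up-regulated 3 (5.88%, beside 19.9%) and down-regulated 9 (17.6%, beside 10.3%). In Rarg-/- cells no member was up-regulated by BMS641 (0%, beside 8.5%) or by the combination (0%, beside 8.61%), and 6 (11.8%, beside 7.82%) and 5 (9.80%, beside 7.3%) were down-regulated. The lowest counts of up-regulated members at d10 were thus those of Rarg-/- cells without ATRA or BMS753, and the highest that of Rarb-/- cells with BMS753. That highest share (21.6%) was near the share of all listed genes (22.3%).

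**Figure D2:**
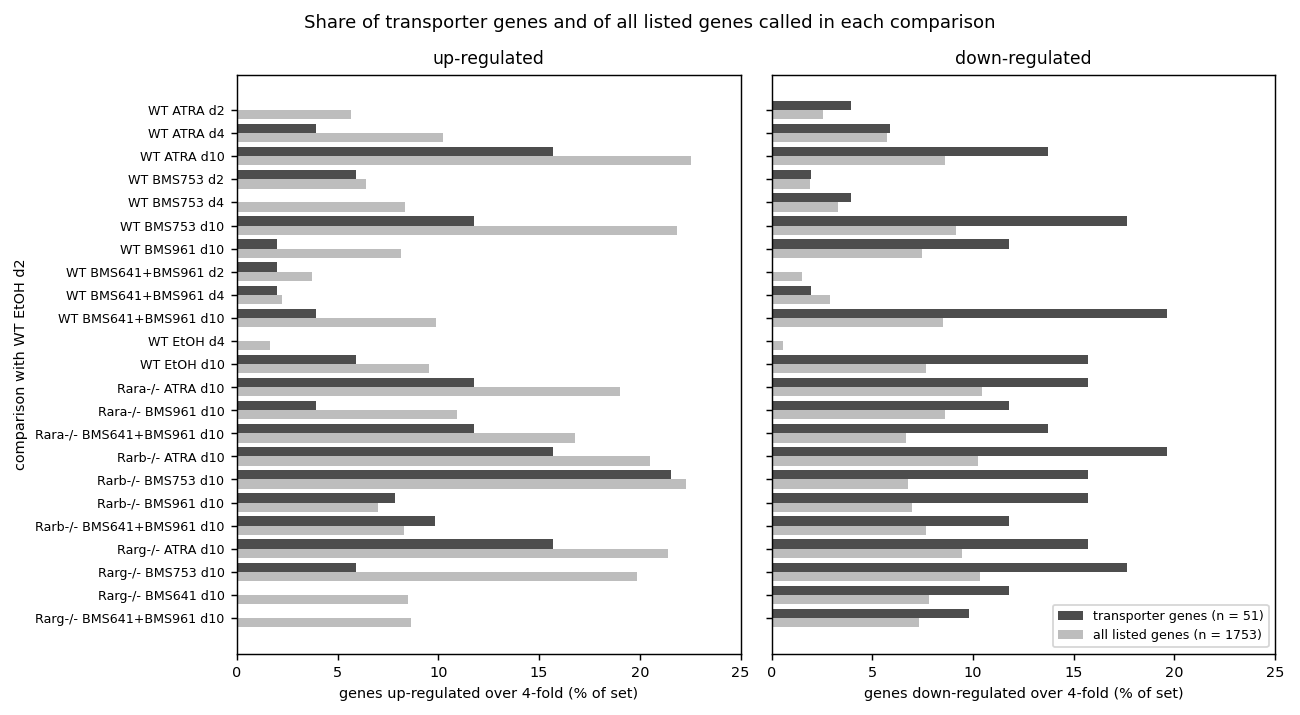
Percent of the 51 transporter genes (dark bars) and of all 1753 listed genes (light bars) that were up-regulated (left) or down-regulated (right) over 4-fold in each comparison with WT EtOH d2, by line, ligand and day. The dark bar is shorter than the light bar on the left in most comparisons, with Rarb-/- cells given BMS961 or the combination as exceptions at d10, and longer on the right in all 16 comparisons of d10.

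Before d10, few members were listed. ATRA at d2 had 0 up-regulated members (beside 5.65% of all listed genes) and 2 down-regulated (beside 2.57%), Slc35d3 and Slc7a7. At d4 it had 2 up-regulated (beside 10.2%), Abca1 and Aqp6, and 3 down-regulated (beside 5.7%), Aqp3, Abcc4 and Slc35d3. BMS753 at d2 had 3 up-regulated (beside 6.39%), Abca1, Slc25a30 and Atp2b4, and 1 down-regulated (beside 1.88%), Slc35d3. At d4 BMS753 had 0 up-regulated (beside 8.33%) and 2 down-regulated (beside 3.31%), Aqp3 and Slc35d3. BMS641 with BMS961 up-regulated 1 member at d2 (beside 3.71%), the anion exchanger gene Slc26a7, with a log2FC of 6.45 ± 2.43 (SE). At d4 it up-regulated 1 (beside 2.22%), the mitochondrial carrier gene Slc25a34 (6.70 ± 2.54), and down-regulated 1 (beside 2.91%), the citrate carrier gene Slc13a5 (-6.64 ± 2.55). None of these 3 genes was listed at d10. EtOH at d4 had 0 members up-regulated (beside 1.65%) and 0 down-regulated (beside 0.57%), in the table with the fewest genes (57). The neurotransmitter carrier genes were listed at d10 alone.

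Among the carriers of neurotransmitters, 5 members are described, 3 with positive and 2 with negative values. Slc17a6, which encodes a vesicular glutamate carrier and lies on chromosome 7 of mm9 from 58877200 to 58926495, had the largest values of any member. In WT cells at d10 its log2FC was 9.80 ± 2.70 with ATRA, 10.51 ± 2.68 with BMS753 and 8.46 ± 2.42 with the combination of BMS641 and BMS961. It was not listed with EtOH or with BMS961 alone, so that among the WT cells the combination and not the single RARγ agonist had it listed. In Rara-/- cells it was 6.89 ± 2.56 with ATRA, 7.78 ± 2.48 with BMS961 and 9.30 ± 2.41 with the combination. In Rarb-/- cells it was 7.93 ± 2.60 with ATRA and 9.37 ± 2.61 with BMS753, and in Rarg-/- cells 8.61 ± 2.62 with ATRA and 9.24 ± 2.56 with BMS753. The tables of BMS961, BMS641 and the combination in Rarb-/- or Rarg-/- cells did not list it. All 7 tables of ATRA or BMS753 at d10 therefore listed Slc17a6, and 3 of the other 9 did, those of WT and Rara-/- cells with the combination and of Rara-/- cells with BMS961.

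The vesicular and plasma membrane carriers of GABA described here were listed in fewer tables. Slc32a1, the gene of the vesicular carrier of GABA and glycine on chromosome 2 from 158436494 to 158441484, was listed in WT cells with ATRA (6.82 ± 2.60) and in Rarb-/- cells with BMS753 (7.10 ± 2.55). Both tables with Slc32a1 also listed Slc17a6, as did all 7 tables of ATRA or BMS753 at d10, and Slc1a2, which 4 of these listed. Slc6a13, the gene of another GABA carrier known from meninges and liver, had negative values in Rara-/- cells with ATRA (-5.95 ± 2.22) and in Rarg-/- cells with ATRA (-6.43 ± 2.36).

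The uptake carriers of glutamate had values of either sign. Slc1a2, the gene of the main glutamate carrier of astrocytes, on chromosome 2 from 102498816 to 102630941, was up-regulated in WT cells with ATRA (5.74 ± 1.96) and BMS753 (5.28 ± 1.84), in Rarb-/- cells with BMS753 (5.07 ± 1.81) and in Rarg-/- cells with ATRA (4.78 ± 1.83). Both tables with Slc32a1 are among these 4. Slc1a6, the gene of a glutamate carrier known from Purkinje cells, was down-regulated in WT cells with EtOH (-4.45 ± 1.47) and in Rara-/- cells with the combination (-4.01 ± 1.47). A further 12 genes of transmitter carriers, chosen after the results were known, were listed in 0 of the 23 tables. They were Slc17a7, Slc17a8 and Slc1a3 for glutamate, Slc18a1, Slc18a2, Slc18a3, Slc6a2, Slc6a3 and Slc6a4 for amines and acetylcholine, and Slc6a5, Slc6a9 and Slc6a11 for glycine and GABA.

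The markers of cell types listed at d10 differed between the same tables. Of 12 neuron markers, 9 were listed in any table. The number up-regulated was 8 in WT cells with ATRA, 6 with BMS753, 1 with the combination (Dcx), and 0 with EtOH or BMS961. It was 3, 2 and 3 in Rara-/- cells with ATRA, BMS961 and the combination. In Rarb-/- cells it was 2 with ATRA, 9 with BMS753 and 0 with the other ligands, and in Rarg-/- cells 7 with ATRA, 6 with BMS753 and 0 with the other ligands. Gad1 was among the markers up-regulated in both tables that listed Slc32a1. It was also up-regulated in WT cells with BMS753, Rara-/- cells with ATRA, and Rarg-/- cells with ATRA or BMS753, where Slc32a1 was not listed. Of 10 pluripotency markers, 6 were listed in any table, and all 6 were down-regulated in both WT tables of ATRA and BMS753 at d10, in the ATRA tables of the mutant lines and in Rarg-/- cells with BMS753. In the other d10 tables between 0 and 3 of them were. Of 8 astrocyte markers, which include Slc1a2 itself, 5 were listed, and Gfap was not in any of the 16 tables of d10 past the threshold. The listed ones differed in sign: Fabp7 was up-regulated and Aldh1l1 down-regulated in most of these tables, EtOH included. Pdgfra was the only one of 5 markers of oligodendrocyte precursors listed, and it was up-regulated in 13 of these tables. Of 8 markers of mesenchyme or muscle, 6 were listed. With ATRA at d10, 3 of them were up-regulated in WT cells and 4 in each mutant line, beside 2 with EtOH and 4 in Rara-/- cells with the combination. Of 6 endoderm markers, 3 were listed, and at most 2 were up-regulated in a table of d10. A larger share of cells of a type and more RNA per cell cannot be told apart in these bulk samples, and the part of the cell types in the values of the carriers was not tested.

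**Figure D3:**
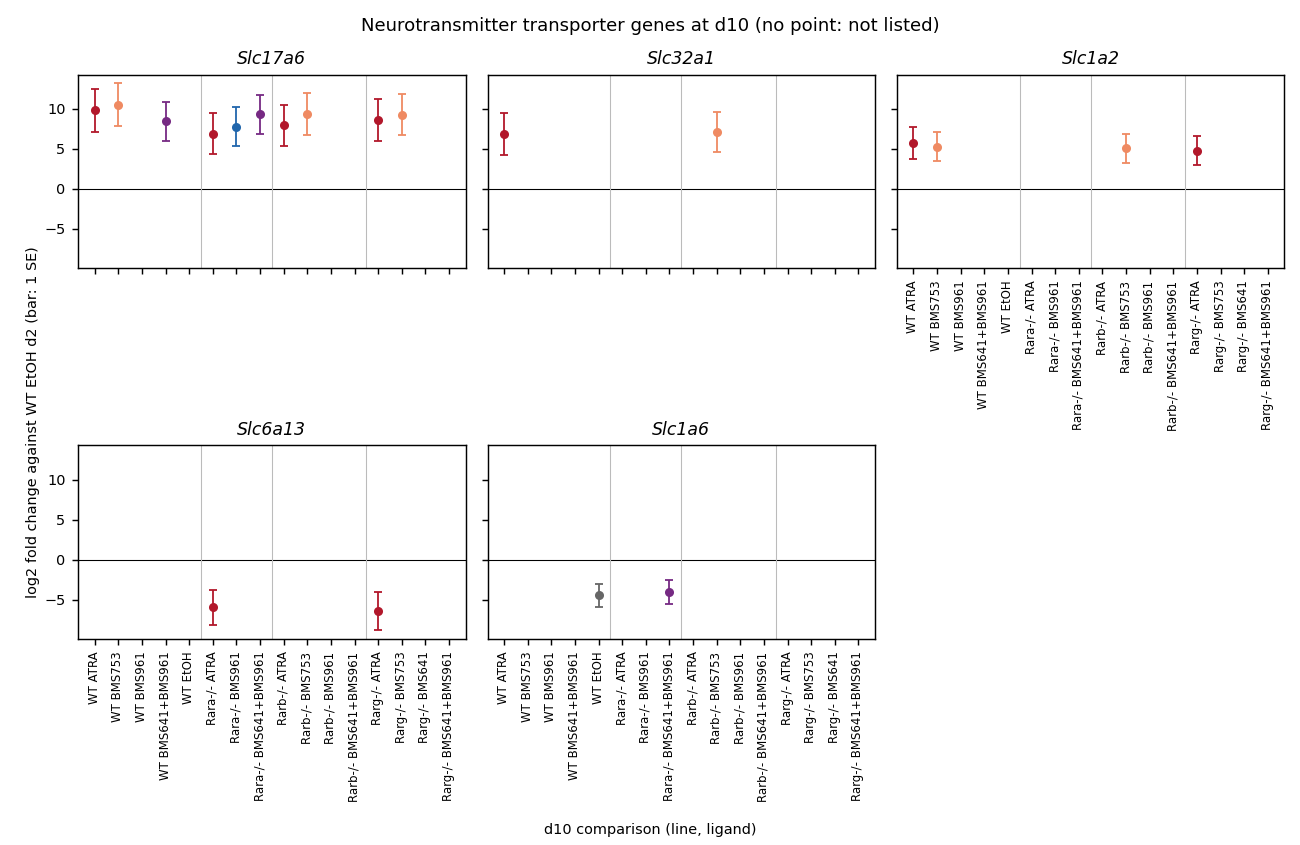
Log2 fold change against WT EtOH d2 of 5 neurotransmitter carrier genes in the 16 comparisons of d10 (1 library each, bars are 1 SE of the comparison). A missing point was not listed; Slc17a6 has points between 6.89 and 10.51 in 10 comparisons, and Slc32a1 and Slc1a2 have points for ATRA and BMS753 alone.

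The carriers of amino acids comprised 6 members, 5 with negative values and 1 with a positive value. Slc38a3, the gene of a sodium-coupled glutamine carrier on chromosome 9 from 107552970 to 107569705, was down-regulated in 15 of the 16 tables of d10, all except EtOH. In the 7 tables of ATRA or BMS753 its log2FC ranged from -7.87 to -5.66 with a median of -5.98, and in the other 8 tables from -6.14 to -4.98 with a median of -5.80. In WT cells it was -5.95 ± 1.97 for ATRA, -5.98 ± 1.90 for BMS753, -5.63 ± 1.47 for BMS961 and -4.98 ± 1.37 for its combination with BMS641. The value lowest of all was that of Rara-/- cells with ATRA (-7.87 ± 2.02). The Slc38a3 values therefore lay within a narrow band relative to their errors, whatever the ligand or line. The EtOH table of d10 listed genes down to an absolute log2FC of 2.77. A value like those of the other tables would have been within its range if its SE was also similar, and that SE is unknown. The other members were each listed once. Slc7a7, of a carrier that exchanges cationic for neutral amino acids, was down-regulated by ATRA at d2 (-3.91 ± 1.47), the single amino acid carrier listed before d10. In WT cells with the combination at d10, Slc38a4, of a carrier of neutral amino acids, was at -3.03 ± 1.10, and Slc6a6, of the taurine carrier, at -3.27 ± 1.13. Slc36a2, of a proton-coupled carrier of glycine and proline, was at -6.04 ± 2.30 in Rarg-/- cells with BMS753. Slc43a2, of a carrier of large neutral amino acids, was at 3.69 ± 1.39 in Rara-/- cells with the combination, and was the only amino acid carrier with a positive value.

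Of the genes for ion exchange, Slc8a1 had the most values. It encodes a sodium and calcium exchanger and lies on chromosome 17 from 81785359 to 82048947. It was up-regulated in all 7 tables of ATRA or BMS753 at d10, from 5.02 to 5.81 with a median of 5.34, and in 1 of the other 9, that of Rara-/- cells with the combination (4.10 ± 1.45). In WT cells it was 5.74 ± 1.95 with ATRA and 5.10 ± 1.82 with BMS753. WT cells with the combination did not list it, in a table that listed values down to 2.75 for any gene, whereas a gene with a larger SE needed a larger value. Slc4a11, a member of the bicarbonate carrier family, was down-regulated with BMS961 alone in WT (-3.67 ± 1.41), Rara-/- (-5.30 ± 1.72) and Rarb-/- cells (-4.38 ± 1.52), and with BMS641 alone in Rarg-/- cells (-3.66 ± 1.40). These are the 4 tables with a single RARβ or RARγ agonist, and neither the combination, ATRA, BMS753 nor EtOH had Slc4a11 listed. The values of WT and Rarg-/- cells were smaller than any that the ATRA and BMS753 tables of d10 listed. They also passed the p-value limit of 0.01 only narrowly. A slightly smaller decrease with EtOH or the combination would not be listed, so a fall particular to single agonists is not shown. Slc4a5, of a sodium bicarbonate cotransporter, was at -8.52 ± 2.41 in WT cells with the combination, the lowest value of any member in that table, and at -5.62 ± 2.01 in Rarb-/- cells with ATRA.

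The calcium pumps of the plasma membrane differed by gene. Atp2b2 was down-regulated in WT cells with EtOH at d10 (-5.72 ± 1.68), in Rarb-/- cells with BMS961 (-3.55 ± 1.32), and in Rarg-/- cells with BMS641 (-3.55 ± 1.31) and with the combination (-4.20 ± 1.40). Apart from EtOH these values were below or near the smallest that the ATRA and BMS753 tables listed. Atp2b4 was up-regulated by BMS753 in WT cells at d2 (3.23 ± 1.02) and in Rarb-/- cells at d10 with ATRA (4.66 ± 1.80) and BMS753 (4.53 ± 1.74). Atp2b3 was listed in 1 table, Rarb-/- cells with BMS753, at 5.61. Atp6v0c, of the membrane subunit of the vacuolar proton pump, was at -7.35 ± 2.57 in WT cells with the combination, -7.35 ± 2.56 in EtOH, -6.73 ± 2.35 in Rarb-/- cells with ATRA and -5.98 ± 2.07 in Rarb-/- cells with BMS961. Atp6v0c has pseudogene copies that could share its reads, and its values are uncertain.

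For zinc, 3 members were listed. Slc30a3 encodes the carrier that loads zinc into synaptic vesicles, and was up-regulated in WT cells with ATRA (6.82 ± 2.17) and BMS753 (5.36 ± 2.00) and in Rarb-/- cells with BMS753 (6.78 ± 2.09). Slc39a8, of an importer of zinc and manganese on chromosome 3 from 135488243 to 135551536, was down-regulated in 8 tables, 6 of ATRA or BMS753 and 2 of other ligands. In WT cells it was -5.28 ± 1.90 with ATRA and -5.33 ± 1.83 with BMS753. All 4 tables of Rarb-/- cells listed it, at -5.98 ± 1.94 with ATRA, -6.15 ± 1.91 with BMS753, -3.48 ± 1.18 with BMS961 and -4.36 ± 1.29 with the combination. In Rarg-/- cells it was -4.84 ± 1.82 with ATRA and -4.24 ± 1.64 with BMS753, and no table of Rara-/- cells listed it. Slc39a4, of another zinc importer, was listed with ATRA in WT cells at d10 alone (-7.05 ± 2.60), where it was the lowest member.

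Among the carriers of lipids and organic anions, Abca1 was the one with values at each time point of WT cells. It encodes the exporter of cholesterol and phospholipid to apolipoproteins, on chromosome 4 from 53043659 to 53172767. Its log2FC was 4.89 ± 1.83 with BMS753 at d2, 7.71 ± 2.40 with ATRA at d4, and 6.04 ± 2.23 with ATRA and 6.02 ± 2.18 with BMS753 at d10. In the mutant lines at d10 it was 6.83 ± 2.17 in Rara-/- cells with ATRA, and 5.97 ± 2.21 and 5.96 ± 2.13 in Rarg-/- cells with ATRA and BMS753. No table of Rarb-/- cells, EtOH, BMS641, BMS961 or their combination listed Abca1. The tables of Rarb-/- cells with ATRA and BMS753 listed values down to 4.61 and 4.42, the smallest of any gene. A gene with a larger SE needed a larger value, so a rise of Abca1 above these could be missing there. Slc27a6, of a fatty acid carrier, was listed with ATRA in the 3 mutant lines, at 6.06 ± 1.88 in Rara-/-, 5.45 ± 1.93 in Rarb-/- and 5.31 ± 1.92 in Rarg-/- cells, and not in WT cells. The table of ATRA in WT cells at d10 had a smallest listed value of 4.73 and a median SE of 2.22. A similar rise of Slc27a6 could therefore be missing from it. Abca4, of a carrier of retinoid conjugates known from photoreceptors, was listed in 2 tables, both of Rarb-/- cells, between 5.67 and 6.88. Atp11b, of a phospholipid flippase, was listed in 1 table, BMS753 at d2, with a log2FC of 1.86, under the threshold of a call.

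Slco4a1 encodes a carrier of organic anions that include thyroid hormone, on chromosome 2 from 180190950 to 180209572. It was down-regulated in 15 of the 16 tables of d10, all except WT cells with ATRA. In 6 tables of ATRA or BMS753 its log2FC ranged from -8.38 to -4.56 with a median of -5.87, and in the other 9 from -5.37 to -3.44 with a median of -4.01. Most values of these 9 were too small for an ATRA or BMS753 table of d10, where the smallest listed were between 4.17 and 4.73. A Slco4a1 decrease of less than 4.73 would thus have gone unseen in ATRA-treated WT cells. The medians are therefore not compared like for like. It was -3.44 ± 1.24 with EtOH, -5.15 ± 1.83 in WT cells with BMS753, -8.38 ± 2.23 in Rarb-/- cells with ATRA and -7.58 ± 2.14 in Rarg-/- cells with ATRA. The lowest listed values of Slco4a1 were those of ATRA in the Rarb-/- and Rarg-/- lines. The highest listed were those of EtOH and of Rarg-/- cells with the combination (-3.44 ± 1.21).

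The ABC transporters of drugs and other substrates had negative values in every table that listed them. Abcc4, of an exporter of cyclic nucleotides and drugs on chromosome 14 from 118881914 to 119105441, was listed with ATRA in WT cells at d4 (-7.04 ± 2.08) and in 15 of the 16 tables of d10. At d10 it ranged from -6.62 to -5.23 with a median of -5.81 in the 7 tables of ATRA or BMS753, and from -4.18 to -2.78 with a median of -3.31 in 8 other tables. With EtOH it was -4.18 ± 1.29, the lowest of the 8, and with BMS961 in Rarb-/- cells it was not listed. The ranges of the 2 sets of tables did not overlap for Abcc4, although the ATRA and BMS753 tables could not have listed most values of the other set, since their smallest listed values were between 4.17 and 4.73. Abcb1a, of a drug exporter of the blood-brain barrier, was listed in all 7 tables of ATRA or BMS753 at d10, from -5.79 to -5.02 with a median of -5.50, and in no other table. Its neighbour Abcb1b was at -5.91 ± 2.02 in WT cells with ATRA, -4.92 ± 1.84 with BMS753 and -4.88 ± 1.82 in Rarb-/- cells with BMS753. Abcb1a and Abcb1b lie next to each other on chromosome 5 (8660077 to 8748575 and 8798147 to 8866314) and are related in sequence. Whether they shared reads was not tested. Abcc8, of a subunit of a potassium channel, was listed in 1 table, EtOH at d10, at -4.53.

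The 3 aquaporins followed different patterns. Aqp3, of a channel for water and glycerol on chromosome 4 from 41039755 to 41045216, was down-regulated in 17 tables, more than any other member. It was already at -9.18 ± 2.45 with ATRA and -4.68 ± 1.71 with BMS753 at d4. At d10 it ranged from -7.87 to -5.67 with a median of -7.63 in the 7 tables of ATRA or BMS753, and from -5.90 to -4.09 with a median of -4.86 in 8 other tables. EtOH had -4.16 ± 1.30, WT cells with ATRA had -6.65 ± 2.05, and those with BMS753 had -7.73 ± 2.08. The ranges overlapped between Rara-/- cells with ATRA (-5.67 ± 1.80) and the combination in Rara-/- cells (-5.89 ± 1.61) or BMS641 in Rarg-/- cells (-5.90 ± 1.48). Rarg-/- cells with the combination were the d10 table without Aqp3. Aqp5, of a water channel of glands, was down-regulated in 6 tables of d10, none of them with ATRA or BMS753. It was -7.98 ± 2.47 with EtOH, -5.67 ± 1.79 with BMS961 in WT cells, -7.86 ± 2.26 with BMS961 and -4.62 ± 1.71 with the combination in Rara-/- cells, -4.63 ± 1.68 with BMS961 in Rarb-/- cells, and -4.84 ± 1.70 with the combination in Rarg-/- cells. The 3 values between -4.84 and -4.62 were near the smallest listed with ATRA or BMS753. Aqp6, of an aquaporin that conducts anions, was up-regulated by ATRA in WT cells at d4 (7.61 ± 2.87) and d10 (7.40 ± 2.60) and by BMS753 in Rarb-/- cells (7.28 ± 2.55). Aqp5 and Aqp6 are neighbours on chromosome 15, from 99421280 to 99425260 and from 99431831 to 99435908, and no table listed both.

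**Figure D4:**
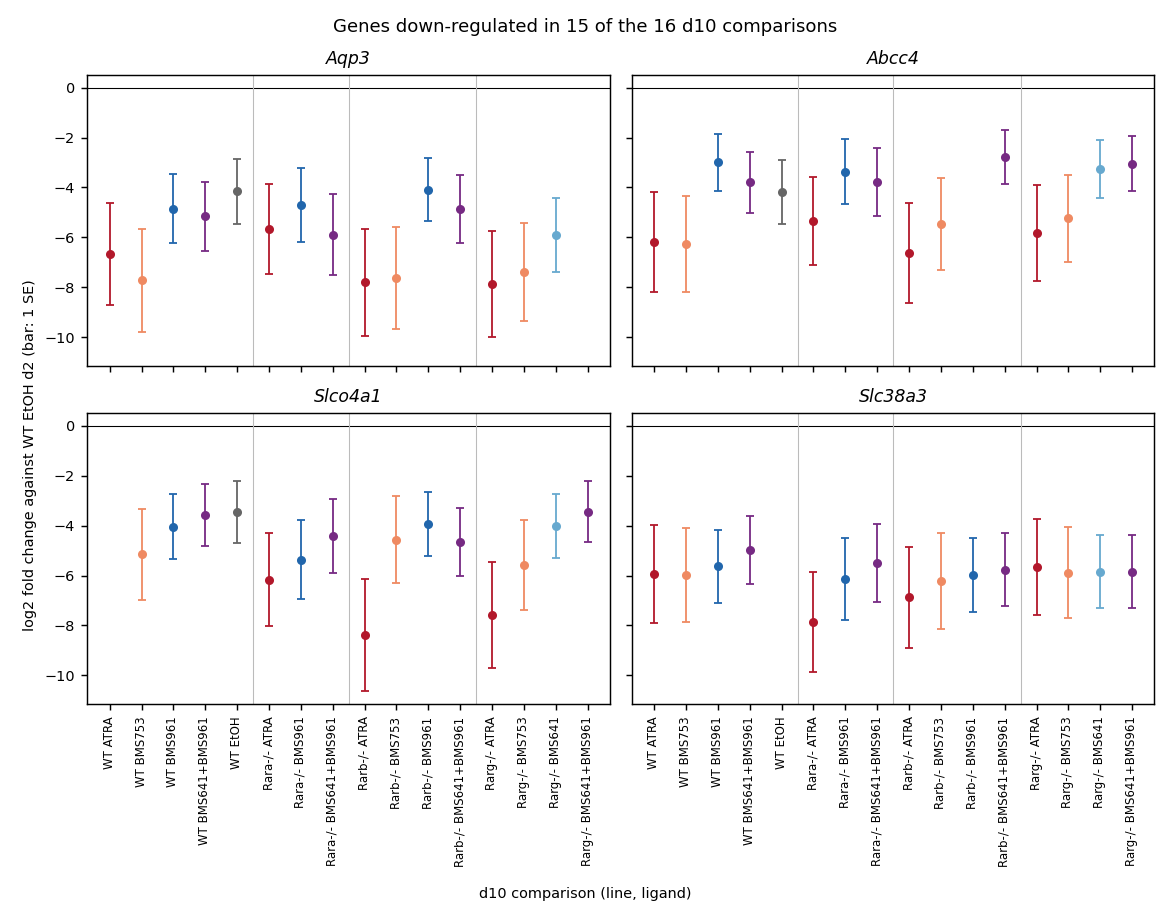
Log2 fold change against WT EtOH d2 of Aqp3, Abcc4, Slco4a1 and Slc38a3 in the 16 comparisons of d10 (1 library each, bars are 1 SE of the comparison). All points are below 0, EtOH included for the genes other than Slc38a3; the Slc38a3 points stay between -7.87 and -4.98, whereas the lowest Aqp3, Abcc4 and Slco4a1 points are those of ATRA or BMS753.

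The carriers of sugars and monocarboxylates comprised 7 members, 4 with positive and 3 with negative values. Slc16a6, of a member of the monocarboxylate carrier family, was up-regulated with EtOH (4.07 ± 1.41) and BMS961 (4.27 ± 1.40) in WT cells, with BMS961 (4.48 ± 1.51) and the combination (4.13 ± 1.48) in Rara-/- cells, and with the combination in Rarb-/- cells (3.72 ± 1.34). Values of this size were near the smallest that the ATRA and BMS753 tables listed (4.17 to 4.73), so that the lack of Slc16a6 there is not informative. Slc16a9, of a carrier of carnitine and creatine, was at 5.57 ± 1.83 in WT cells with the combination, 5.55 ± 2.00 in Rara-/- cells with ATRA, 6.42 ± 2.15 in Rarb-/- cells with ATRA, 5.09 ± 1.77 in Rarb-/- cells with the combination and 5.35 ± 2.07 in Rarg-/- cells with ATRA. Slc50a1, of a sugar exporter, was listed in Rara-/- and Rarb-/- cells alone. It was 7.03 ± 2.55 with ATRA and 6.79 ± 2.55 with the combination in Rara-/- cells, and 7.15 ± 2.59 with ATRA, 8.55 ± 2.35 with BMS961 and 8.37 ± 2.34 with the combination in Rarb-/- cells. Slc16a14 was listed in 2 tables between 4.70 and 5.34. The lactate exporter gene Slc16a3 was listed in 2 tables, both of the combination, between -3.44 and -2.90. Of the glucose carrier family, Slc2a3, the main neuronal glucose carrier gene, was listed in 2 tables of ATRA in Rara-/- and Rarb-/- cells, between -4.68 and -4.36, and Slc2a6 in 1 table, WT cells with the combination, at -7.96.

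Of the carriers of the nucleotide sugar family, Slc35d3, on chromosome 10 from 19567723 to 19571265, was the member listed most often before d10. It was down-regulated at d2 with ATRA (-5.11 ± 1.76) and BMS753 (-2.26 ± 0.835) and at d4 with ATRA (-5.38 ± 1.88) and BMS753 (-7.55 ± 2.25). At d10 it was -4.82 ± 1.79 in WT cells with BMS753, -5.16 ± 1.82 and -3.25 ± 1.19 in Rarb-/- cells with BMS753 and the combination, and -4.79 ± 1.83 and -4.92 ± 1.74 in Rarg-/- cells with ATRA and BMS753. It was not listed in Rara-/- cells or with ATRA in WT cells at d10. Slc35f2 was at -4.94 ± 1.79 in WT cells with BMS753, -5.20 ± 1.74 in Rara-/- cells with ATRA, -5.25 ± 1.86 in Rarb-/- cells with ATRA and -4.79 ± 1.71 in Rarg-/- cells with BMS753. Slc35g2, named Tmem22 in the mm9 annotation, was up-regulated with EtOH at d10 (7.65 ± 2.51) and in Rarb-/- cells with BMS753 (6.97 ± 2.56), BMS961 (7.52 ± 2.44) and the combination (7.49 ± 2.42).

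The mitochondrial carriers had 4 members, all with positive values in 1 or 2 tables. Slc25a31, of an ADP and ATP exchanger known from germ cells, was listed in 2 tables of Rarb-/- cells between 6.83 and 6.86, Slc25a35 in 1 table, EtOH at d10, at 7.63, and Slc25a30 in 1 table, BMS753 at d2, at 4.34. The urea carrier gene Slc14a1 was at 8.76 ± 2.62 with ATRA in Rarb-/- cells, the highest member of that table, and at 6.71 ± 2.60 with ATRA in Rarg-/- cells.

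ATRA and BMS753 were given at the same dose, and their tables can be compared by the difference of the log2FC of a gene listed in both, in which the reference cancels. The error of a difference is the root of the summed squares of the 2 SE, and its interval is set at 95%. The error of the reference is in both SE although it cancels, so these intervals tend to be too wide. There were 33 such differences over 5 pairs of tables, and the interval of 0 of them excluded 0, beside 1 of 1212 for all listed genes. In WT cells at d10, 11 members were compared between both ligands, and the differences (ATRA minus BMS753) ranged from -0.98 for Abcb1b to 1.46 for Slc30a3. The interval was -4.31 to 7.24 for Slc30a3, -8.16 to 6.74 for Slc17a6 and -4.64 to 6.79 for Aqp3. Of the others, Aqp6, Slc32a1 and Slc39a4 were listed with ATRA alone, and Slc35d3, Slc35f2 and Slco4a1 with BMS753 alone. At d4 the difference was -4.49 for Aqp3 (-10.36 to 1.38) and 2.17 for Slc35d3 (-3.58 to 7.91), and at d2 it was -2.85 for Slc35d3 (-6.67 to 0.97). In Rarb-/- cells the largest difference was that of Slco4a1, -3.83 (-9.38 to 1.73), and in Rarg-/- cells also that of Slco4a1, -2.01 (-7.50 to 3.47). These intervals span several log2 units on either side, so that they neither separate the ligands nor show that they act alike. BMS641 and BMS961 were given at a lower dose, and their values stand beside those of ATRA and BMS753 without a comparison of the compounds.

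**Figure D5:**
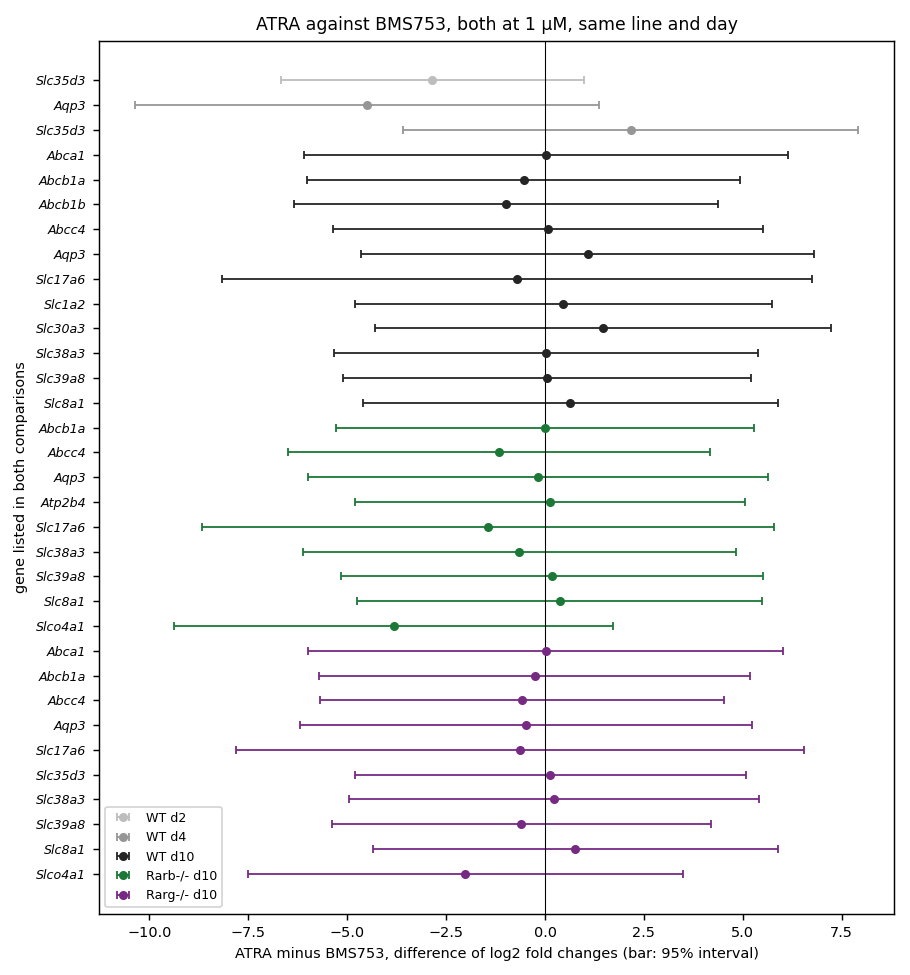
Difference of log2 fold changes, ATRA minus BMS753 (both 1 µM), for the transporter genes listed with both ligands in the same line at the same day (33 differences, coloured by line and day; 1 library per ligand, bars are 95% intervals from the SE of both comparisons). The bars of all 33 cross 0, and the points of WT d10 lie between -0.98 and 1.46.

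Against EtOH at the same day, 61 differences were available over 15 tables of d10, and 0 had an interval that excluded 0, beside 28 of 1746 for all listed genes. The nearest was Slco4a1 in Rarb-/- cells with ATRA, 4.94 below EtOH on the log2 scale (-9.95 to 0.06). For Aqp3, ATRA minus EtOH was -2.49 (-7.24 to 2.25) and BMS753 minus EtOH was -3.57 (-8.37 to 1.23) in WT cells, whereas the combination lay 1.00 lower than EtOH (-4.74 to 2.74) and BMS961 minus EtOH was -0.69 (-4.41 to 3.03). For Abcc4 these were -2.01 (-6.65 to 2.64), -2.09 (-6.63 to 2.45), 0.39 (-3.08 to 3.86) and 1.19 (-2.17 to 4.56). The decrease of Aqp3, Abcc4 and Slco4a1 from d2 to d10 was thus also present in the vehicle. Whether a ligand lowered them further was not resolved by these intervals. Slc17a6, Slc32a1, Slc1a2, Slc8a1 and Slc38a3 were not listed in EtOH, and no difference could be formed for them. The count of 0 thus leaves out members listed in 1 table of a pair alone. It does not show that the ligands and EtOH act alike.

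Between a mutant line and WT cells with the same ligand at d10, 74 differences over 10 pairs of tables had intervals that all included 0, beside 1 of 2500 for all listed genes that did not. The largest was Slc17a6 with ATRA, 2.91 lower in Rara-/- than in WT cells on the log2 scale. The combination had Slc17a6 listed in WT (8.46 ± 2.42) and Rara-/- cells (9.30 ± 2.41), and in Rara-/- cells also Slc8a1, Slc50a1, Slc16a14, Slc16a6 and Slc43a2, none of which the WT table listed. Slc16a6 was also up-regulated in WT cells with EtOH (4.07 ± 1.41). The WT table alone listed 6 members, Atp6v0c, Slc16a9, Slc2a6, Slc38a4, Slc4a5 and Slc6a6. Of all genes, 411 were listed in Rara-/- and 322 in WT cells with the combination, and 170 in both. Between the combination and BMS961 alone in the same line there were 18 differences over 3 lines, and between the combination and BMS641 alone in Rarg-/- cells 4, and 0 of these had an interval that excluded 0. Among these BMS641 and BMS961 tables, in Rara-/- cells, Aqp5 was at -4.62 with the combination and -7.86 with BMS961, a difference of 3.25 (-2.31 to 8.80). The differences between lines and between these ligands cover only genes listed in both tables, and their intervals are wide. They neither separate the lines or ligands nor show that they act alike.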

How the data were processed

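Poly(A) RNA of P19 cells was sequenced (NEBNext Ultra II libraries), with 24 samples, 1 library per condition, and 23 tables, since the WT EtOH library of d2 is the reference. According to the submitters' processing notes and the study's methods, the authors aligned reads to mm9 with Bowtie2 2.1.0, counted them with featureCounts and compared libraries with DESeq2. What was deposited is a log2 fold change and an unadjusted p-value, under 0.01 throughout, and the table of ATRA at d2 also holds the authors' standard error, treated as a score. These are the authors' own comparisons. How many genes were tested is not in the tables, so that shares refer to the 1753 listed genes. The counts were not used here, and the depth, and with it any detection limit, is unknown. Without counts and a second library no test across genes was made here, and n is 1 per group.

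From each log2 fold change and p-value the SE was computed under a two-sided normal test. The deposited SE, given for 144 genes, and the computed SE had a largest relative difference of 4.27e-08. Differences between tables take the SE as independent, although the reference enters both. Their intervals therefore tend to be too wide and to include 0 too often. The formula of the SE and the rule for a call were tested on simulated data. Members were grouped by substrate. The members, the lists and the tests were chosen with earlier results of these data known. Values are given for every neurotransmitter and amino acid carrier, for other members in at least 3 tables, and for the highest and lowest member of each table, and the rest by their number of tables and range. A member that is not reported here remains in the counts over all 51. All 51 members were located in the GENCODE annotation of mm9. Promoters are from RefSeq. The software was Python 3.11.15 with matplotlib 3.10.9, scipy 1.17.1, numpy 2.4.6 and pandas 2.3.3. Alternatives were thresholds of 1 and 3, a p-value limit of 0.001, removal of members also called in EtOH, and Slc and Slco genes alone.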

Additional observations from a re-analysis of the deposited data

How the results depend on the processing

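With a p-value limit of 0.001, the up-regulated members at d10 fell from 8 to 2 in WT cells with ATRA, from 6 to 1 with BMS753, from 2 to 1 with the combination of BMS641 and BMS961 and from 3 to 0 with EtOH, and from 6 to 1 in Rara-/- cells with the combination; a stricter limit keeps fewer genes by its construction. Of the 211 values, 45 were under this limit, in 14 members, with 11 for Aqp3, 10 for Slc38a3, 6 for Slc17a6 and 5 for Slco4a1. Thresholds of 1 and 3, the Slc and Slco genes alone and, in the 4 ligand tables, removal of members also called in EtOH left these 5 counts within 1.5 times. Of the other counts, 33 moved by more with the stricter p-value, 17 with Slc and Slco genes alone, 15 without members called in EtOH, 1 with a threshold of 3 and 0 with a threshold of 1. None of the 61 differences between a ligand and EtOH had both p-values under 0.001, so that their number was 0 under this limit. No paired analysis was possible because each condition has 1 library. The SE cover the model of the comparison and not the spread between cultures. With ATRA or BMS753 at d10 no change under about 4.17 to 4.73 on the log2 scale was listed for any gene. A gene with a larger SE needed a larger change to be listed.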

Other observations

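The log2 fold change of a gene was sometimes the same in different tables. Over all pairs of tables that listed a gene, 513 of 26085 pairs of values (1.97%) differed by less than 0.0001. Among the transporter genes this held for 3 of 757 pairs (0.396%). They were Atp6v0c in WT cells with EtOH and with the combination of BMS641 and BMS961 at d10, Slco4a1 in WT cells with EtOH and in Rarg-/- cells with the combination, and Slc38a3 in Rarg-/- cells with BMS641 alone and with the combination. The cause was not tested.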
